A study of Mus musculus with 60 samples.

Results

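The comparison set carcinomas of mice that developed their first papilloma late against carcinomas of mice that developed it early. Late onset was a label of 18 weeks or more and early onset a label of 10 weeks or less, which gave 39 of the 55 mice and 43 of the 60 arrays of the series. The late class held 14 mice with 1 array each, and the early class held 25 mice with 29 arrays, averaged within a mouse so that mice were the replicates. A further 12 mice had their first papilloma between week 12 and week 16 and entered only the trend over weeks, and 4 mice with 5 arrays had no week and entered no comparison. All mice were FVBBX, made by crossing SPRET/Ei to FVB/N and backcrossing the offspring to FVB/N, so the spretus alleles differed from animal to animal. Mice of both classes received DMBA, a mutagen, and then TPA, a tumour promoter, on the back skin, and RNA came from carcinomas of that skin. Levels are log2 values from Affymetrix mouse arrays, normalised with RMA, and a difference of 1 is a doubling. Untreated skin was not analysed here, and the tumour on the array was a carcinoma, not the papilloma whose onset was timed.

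Two-stage skin carcinogenesis separates initiation, in which DMBA mutates Hras in single keratinocytes, from promotion, in which repeated TPA drives those clones to grow out as papillomas. The latency of the first papilloma is a measure of how readily a mouse completes these steps, and papillomas are the benign lesions from which squamous carcinomas can arise. Granzymes, the serine proteases of cytotoxic lymphocyte granules, are described first because Gzme was among the genes the study discussed. Most of them lie side by side in a cluster on mouse chromosome 14, whose members arose by gene duplication.

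The first papilloma appeared in the late class at week 18 in 5 mice, week 20 in 2, week 21 in 1, week 22 in 3, week 24 in 2 and week 28 in 1. In the early class it appeared at week 8 in 2 mice and at week 10 in 23. Late mice bore 0 to 16 papillomas at 20 weeks (median 0.5, mean 2.07, SD 4.20, n = 14) and early mice bore 0 to 35 (median 9, mean 9.48, SD 7.93, n = 25). The means differed by -7.41 papillomas. At 24 weeks late mice bore 0 to 17 (median 1.5) and early mice 0 to 30 (median 12), a difference of -8.57. The week that made the classes also bounds these counts, since the 7 late mice with a first papilloma after week 20 have 0 at 20 weeks by that label, so the counts are a description with no test. At 20 weeks 7 late and 3 early mice were free of papillomas and 1 late mouse lay above the early median. The counts of 1 late and 3 early mice went against their week, and without them the differences were -8.54 and -9.83.

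The classes were also set side by side on the other labels. Squamous cell carcinoma (SCC), rather than spindle carcinoma, was the histology in 9 of 11 late and 16 of 23 early mice with that label (two-sided Fisher's exact test, p = 0.682). A p53 mutation was recorded in 3 of 14 late and 8 of 25 early mice (p = 0.713). An agouti rather than a white coat was recorded in 9 of 14 late and 11 of 25 early mice (p = 0.32), and 8 of 14 late and 14 of 25 early mice were female (p = 1). None of these 4 makeup tests passed after adjustment (adjusted p between 0.951 and 1), and the share of agouti coats was 20.3 points higher in late mice. The label for affected lymph nodes was given for 6 late mice (2 positive) and 16 early mice (10 positive) and was not tested. Tumours were poorly, moderately and well differentiated in 6, 2 and 3 late mice and in 11, 4 and 8 early mice. The origin labels F1BSF1, F1BSF2, F1BSF3 and F1BSF4 covered 4, 2, 3 and 5 late mice and 5, 5, 4 and 11 early mice. Grade and origin were not tested between the classes.

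Some arrays stood apart from their labels. The arrays of late mice 3 and 8, which the labels give as different animals, were nearly identical (r = 0.985 over genes), as were those of late mouse 6 and a mouse without a week (r = 0.986). Xist and Y-linked genes went against the labelled sex on 5 late arrays and on 7 early arrays, from 6 early mice. The 3′ minus 5′ difference of the Gapdh control probe sets, which grows as RNA degrades, ran from -0.17 to 0.28 in late mice (median 0.01) and from -0.08 to 1.85 in early mice (median 0.07). Its means differed by -0.18 (two-sided permutation test with 100000 resamples, p = 0.029, adjusted p = 0.058 over 2 controls), and by -0.08 (p = 0.113) without the 3 arrays of largest difference. At an unadjusted p under 0.05, 313 genes were higher and 410 lower in late mice without late mice 3, 6 and 8, 495 and 591 without the arrays that went against their sex, and 298 and 323 without the 3 arrays of largest Gapdh difference, against 384 and 432 with all arrays.

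No gene separated the classes after adjustment for the number of genes tested. Limma called 0 of 12791 genes (0%) at a Benjamini-Hochberg adjusted p under 0.05, and the smallest adjusted p was 0.681. At an unadjusted p under 0.05 there were 384 genes with a higher level in late mice (3.00% of those tested) and 432 with a lower level (3.38%), together 816 (6.38%). The median difference over all genes was -0.01. The split between directions depended on the scaling: with quantile normalisation of the gene table it was 544 higher and 328 lower, and with a common 75th percentile 532 higher and 331 lower. A slope on the log2 week over 51 mice, the intermediate ones included, also gave 0 calls (smallest adjusted p 0.718), with 676 genes (5.28%) at an unadjusted p under 0.05. The standard error of a gene's difference had a median of 0.13, so the confidence interval reached a median of 0.26 to either side. Only 32 genes differed by more than 1 on the log2 scale. All differences below are therefore descriptions of genes that did not pass the test, given with their unadjusted p from limma.

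Gzme, which encodes granzyme E, had one of the largest differences. Its level ran from 4.83 to 10.02 in late mice (median 8.57) and from 3.60 to 9.41 in early mice (median 6.46). The classes overlapped widely, but 13 of 14 late mice lay above the early median and 3 above the highest early mouse. The mean was 1.74 higher in late mice (SE 0.53, 95% confidence interval 0.67 to 2.80, a 3.34-fold ratio, unadjusted p = 0.00207, adjusted p = 0.692). The intermediate mice did not fall between the classes, with a median of 6.02 and a range from 2.59 to 11.2, and the slope over all weeks was 1.19 per doubling of the week (SE 0.58, p = 0.044). The 5 late mice of week 18 lay between 8.30 and 10.02. When late onset was taken as 20 weeks or more the difference was 1.26 (p = 0.0536), and at 22 weeks or more 0.92 (p = 0.222). Leaving out each mouse in turn gave 1.61 to 2.00, and leaving out late mice 3, 6 and 8 gave 1.46 (p = 0.0161). With the Gapdh 3′ minus 5′ value as a covariate the difference was 1.40 (p = 0.01). Within the 4 cages that held both classes it was 2.75 (p = 0.00223).

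Gzmd, which encodes granzyme D, was the closest of the granzymes to Gzme in promoter sequence. Gzmd ran from 3.25 to 10.55 in late mice (median 5.25) and from 2.53 to 7.36 in early mice (median 4.67). The medians differed by less than the means, and 4 late mice lay above every early mouse. The mean was 1.29 higher in late mice (SE 0.62, p = 0.0453, adjusted p = 0.768). It rested in part on the near-identical arrays: without late mouse 3 the p was 0.121, and without late mice 3, 6 and 8 the difference was 0.70 (p = 0.239). Across the 39 mice the levels of Gzmd and Gzme correlated with r = 0.628, and across the 16 mice outside both classes with r = 0.835, both genes being read from the same arrays. The probe sets used for both genes carry a suffix that Affymetrix gives where probes may match other transcripts, so their signals may not be independent. A dimmer Gzmd probe set without that suffix gave 1.14 (SE 0.61, p = 0.0696).

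The promoters of Gzme and Gzmd show how alike the pair is outside the coding part. The RefSeq sequences of assembly GRCm38.p6, from 250 bases before to 50 after the start, lie at chr14:56120576-56120875 for Gzme and chr14:56132544-56132843 for Gzmd, both on the minus strand. Capitals mark the bases at which the pair differs, 19 in each sequence.
Gzme: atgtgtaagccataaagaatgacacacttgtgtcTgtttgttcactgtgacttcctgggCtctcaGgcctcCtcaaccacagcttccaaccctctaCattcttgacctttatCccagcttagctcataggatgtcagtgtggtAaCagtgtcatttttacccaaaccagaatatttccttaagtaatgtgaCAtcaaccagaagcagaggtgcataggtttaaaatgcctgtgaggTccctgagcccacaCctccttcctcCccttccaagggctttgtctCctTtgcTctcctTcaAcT
Gzmd: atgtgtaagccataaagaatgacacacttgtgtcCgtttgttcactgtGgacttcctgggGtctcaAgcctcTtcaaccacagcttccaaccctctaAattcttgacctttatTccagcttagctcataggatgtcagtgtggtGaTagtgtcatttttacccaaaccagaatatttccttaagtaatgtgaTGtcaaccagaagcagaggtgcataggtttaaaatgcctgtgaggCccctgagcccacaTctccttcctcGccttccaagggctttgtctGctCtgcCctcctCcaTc
Of 301 aligned columns 281 were identical (93.4%). Gzmc shared 83.8% of columns with Gzme, Gzmf and Gzmg shared 85.3% with each other, and Gzmb and Gzma, which cytotoxic T cells use most, shared only 48.5% and 47.5% with Gzme. Each of 5 motif strings of transcription factors active in lymphocytes or under TPA was searched on both strands of these windows. None of these exact strings matched in Gzme or Gzmd. Shorter parts of them do occur in both sequences and were not counted. Among them are TGTGGT, part of the RUNX string, and TTTCC, the reverse complement of GGAAA in the NFAT string. Gzme also holds TGACATCA and Gzmd TGATGTCA, at the place where the capitals read CA and TG. Each is unlike the CRE motif TGACGTCA in a single base. The AP-1 motif TGANTCA was in Gzmb alone of the 7 granzyme promoters, against 7.81% of 32851 promoters. The CRE motif TGACGTCA was in Gzmc, Gzmf and Gzmg, against 1.79% of promoters. The RUNX string TGTGGTTT (1.78%) and the NFAT string TGGAAA (21.4%) were in Gzma alone, and the GAS motif TTCNNNGAA (8.3%) in Gzmb alone.

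The other granzymes of the chromosome 14 cluster were higher in late mice on average, but a few mice carried the difference. Gzmg ran from 2.64 to 9.70 in late mice (median 3.09) and from 2.36 to 6.06 in early mice (median 2.81), a difference of 1.09 (SE 0.54, p = 0.0529). Gzmf ran from 3.07 to 9.94 in late mice (median 3.55) and from 2.96 to 7.35 in early mice (median 3.29), a difference of 0.99 (SE 0.50, p = 0.0528). Gzmg was above the array median in 4 late and 4 early mice and Gzmf in 5 late and 4 early mice, and the 2 highest values of each belonged to late mice 3 and 8. Without late mice 3, 6 and 8 the differences were 0.33 for Gzmg and 0.24 for Gzmf. Gzmc differed by 0.70 (p = 0.13) and Gzmb by 0.31 (p = 0.33), and Gzma on chromosome 13 by 0.14 (p = 0.528). Levels of Gzma and Gzmb did not follow Gzme across the 39 mice (r = -0.12 and -0.10).

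Of 9 listed granzyme and perforin genes 7 passed the filter on low values, and each of these had a higher mean in late mice, 2 at an unadjusted p under 0.05 (background 3.00%). Over all 12791 tested genes 6126 (47.9%) had a higher mean and 6665 (52.1%) a lower mean in late mice. The median difference of the 7 genes was 0.99, against -0.01 for all genes, and 0.33 without late mice 3, 6 and 8. Gzmk and Prf1, which encodes the pore-forming perforin, did not pass the filter. The T and NK cell markers did not share the pattern: of 16 listed genes 7 were measured above the filter, 4 higher and 3 lower, with a median difference of 0.00. Their mean level ran from 4.47 to 5.37 in late mice (median 4.77) and from 4.41 to 5.69 in early mice (median 4.79). Cd3d, a subunit of the T cell receptor complex, differed by -0.34 (p = 0.0679), and Il2rb, a receptor chain of NK and activated T cells, by 0.20 (p = 0.128). In bulk tumours fewer cells of a type and less RNA per cell cannot be told apart.

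**Figure D1:**
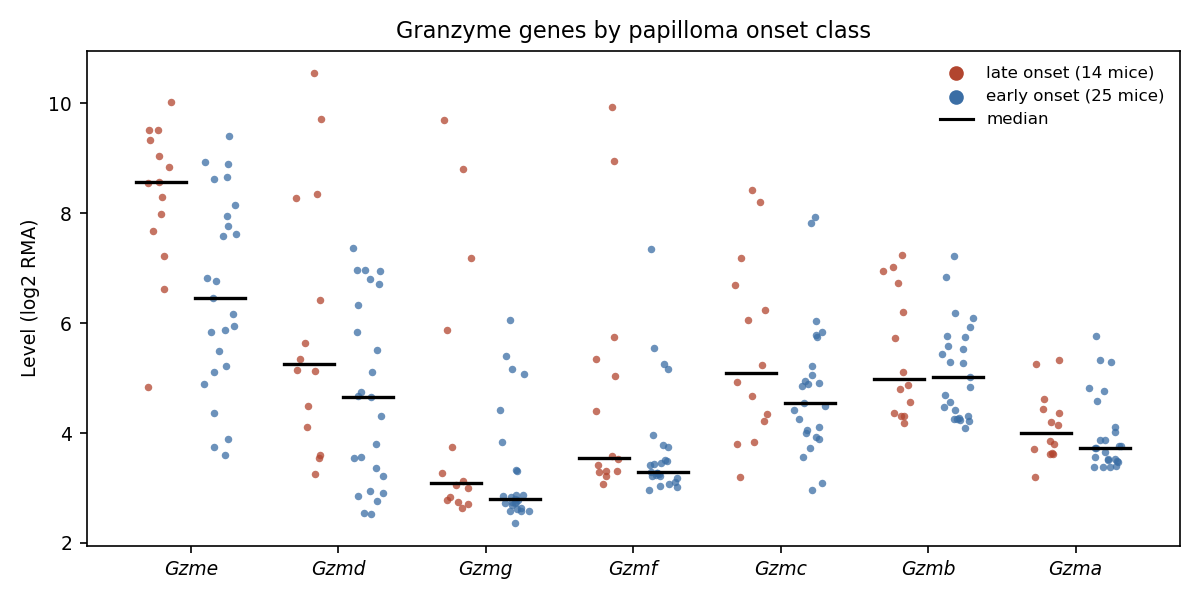
Levels (log2 RMA) of 7 granzyme genes, with 1 point per mouse, late onset left of early onset for each gene and black bars at the medians. The Gzme points of 13 of 14 late mice lie above the early median, whereas for Gzmg and Gzmf most mice of both classes lie low and late mice 3 and 8 lie highest.

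Stra8, known in mice for its need in germ cells entering meiosis, was high in a part of the late mice. Stra8 ran from 3.64 to 8.91 in late mice (median 4.84) and from 3.61 to 6.64 in early mice (median 3.99). In 6 of the 14 late mice it was at least 6.28, whereas 1 early mouse reached 6.64 and the next early mouse only 4.42. The mean was 1.51 higher in late mice (SE 0.39, p = 0.000434, adjusted p = 0.681), and the slope over 51 mice was 1.12 per doubling of the week (SE 0.33, p = 0.00152). The 6 high mice had their first papilloma between week 18 and week 22, and those of week 24 and week 28 lay at 4.09 or below. Late mice 3 and 8 were among the high ones, and without late mice 3, 6 and 8 the difference was 1.28 (p = 0.0018). Among the high mice, late mice 8, 13 and 14 and the early mouse had sex markers against their labels. The high early mouse also had 0 papillomas at 20 weeks, against its label of week 10. Only 8 late mice and 1 early mouse were above the array median, so nearly all early values lie where the array measures little. Stra8 thus passed the filter on low values largely through late mice, and its difference is a description. The difference was 2.32 in white mice (p = 1.4e-05) and 0.97 in agouti mice (p = 0.135), with an interaction of 1.35 (SE 0.80, p = 0.0986), and 0.94 within cages that held both classes (p = 0.17).

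Tbx1, a T-box transcription factor known from development of the pharyngeal arches and expressed in hair follicle stem cells, was low in nearly all late mice. Tbx1 ran from 3.64 to 5.24 in late mice (median 3.87) and from 3.54 to 7.43 in early mice (median 4.66). It was under the early median in 13 of 14 late mice, and the exception was the mouse of week 28. The mean differed by -0.89 (SE 0.27, p = 0.00196, adjusted p = 0.692), and by -0.92 in agouti and -0.91 in white mice. The intermediate median was 4.52. The level was above the array median in 1 late and 15 early mice, so nearly all late values lie where the array measures little and Tbx1 passed the filter largely through early mice. Leaving out each mouse in turn gave -0.99 to -0.79.

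**Figure D2:**
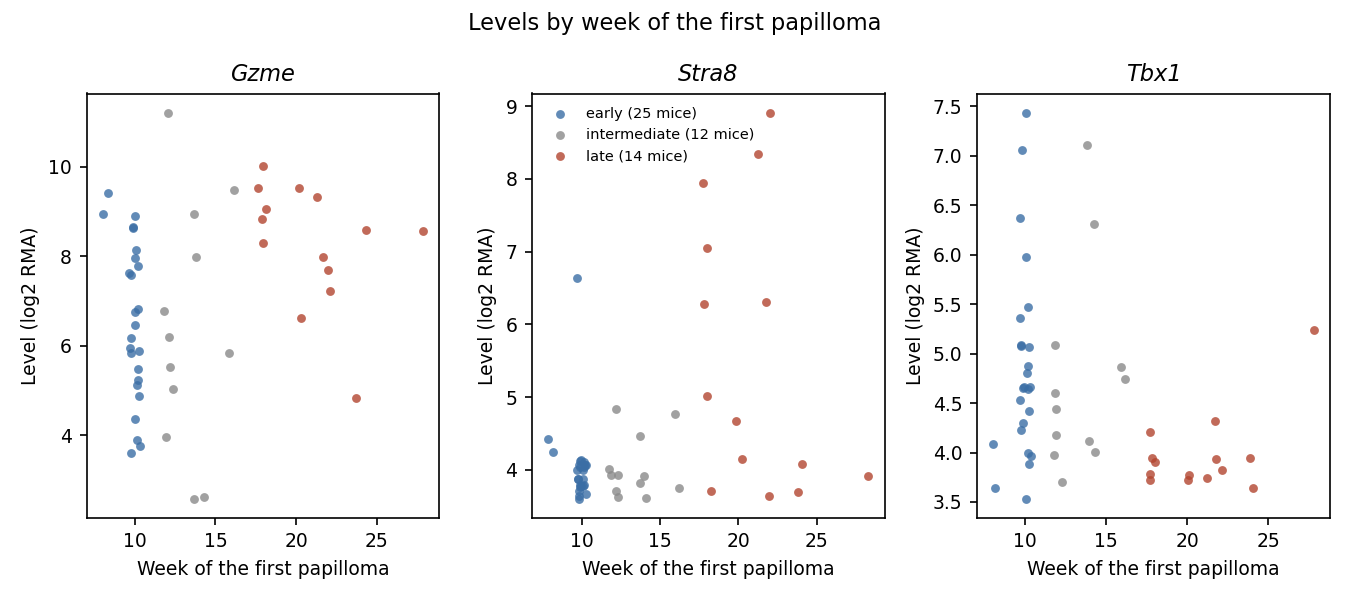
Levels (log2 RMA) of Gzme, Stra8 and Tbx1 against the labelled week of the first papilloma, with 1 point per mouse and a small sideways offset so that mice of the same week do not hide each other. High Stra8 appears in 6 late mice of weeks 18 to 22 and in 1 early mouse, and Tbx1 is low in all late mice but the one of week 28.

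The genes with the smallest p in the direction of higher levels in late mice differed by little, but in many mice. Mast1, a microtubule-associated kinase, ran from 5.32 to 5.69 in late mice (median 5.51) and from 4.99 to 5.60 in early mice (median 5.28). It was above the early median in 14 of 14 late mice, with a difference of 0.23 (SE 0.06, p = 0.000283, adjusted p = 0.681). Ppp2r5c, a regulatory subunit of protein phosphatase 2A, and Hif3a, a member of the hypoxia-inducible factor family, were likewise above the early median in 14 of 14 late mice, with differences of 0.29 (p = 0.00156) and 0.42 (p = 0.00175). These are the values of the brightest probe set. The next brightest gave 0.02 for each gene, and the 6 other probe sets of Ppp2r5c ran from -0.11 to 0.21. Mlf2, a myeloid leukaemia factor homologue, differed by 0.45 (p = 0.000958), and 8 late mice lay above every early mouse. Bsg, which encodes the surface glycoprotein basigin, differed by 0.41 (p = 0.00113) and Exoc6b, a part of the exocyst that tethers secretory vesicles, by 0.32 (p = 0.00129). Pidd1, a death-domain protein induced by p53, differed by 0.29, and Cpeb3, which binds messenger RNA and controls its translation, by 0.27. The 3 other probe sets of Cpeb3 went the opposite way, from -0.36 to -0.19. Atp4b, a subunit of the gastric proton pump, Dyrk1b, a dual-specificity kinase, and Dnajc22, a DnaJ-type co-chaperone, differed by 0.22, 0.21 and 0.18.

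In the direction of lower levels in late mice the smallest p belonged to Ppp4r3b, a regulatory subunit of protein phosphatase 4. Its level ran from 8.26 to 8.89 in late mice (median 8.68) and from 8.34 to 9.50 in early mice (median 9.01), so that 14 of 14 late mice lay under the early median. The difference was -0.34 (SE 0.08, p = 7.77e-05, adjusted p = 0.681), but the 3 other probe sets of this gene gave -0.12, -0.09 and 0.19. Tbc1d14, a regulator of autophagosome formation, was also under the early median in 14 of 14 late mice (difference -0.35, p = 0.000722), but its next brightest probe set gave 0.25 (p = 0.0983). Tbc1d4, which controls insulin-driven movement of glucose transporters, had the largest difference of this group at -0.64 (SE 0.18, p = 0.000709), whereas its other probe set, of nearly the same level, gave 0.01 (SE 0.08, p = 0.929). Fmn1, an actin-nucleating formin, differed by -0.53 (p = 0.000745) and by -0.07 at its other probe set. Preb, which acts in vesicle budding from the endoplasmic reticulum, differed by -0.48 (p = 0.000623). The other probe sets of Preb gave -0.05 and 0.02. Agtpbp1, which trims glutamates from tubulin, differed by -0.44 (p = 0.000717), but a dimmer probe set, above the array median on 11 arrays, gave 0.24 (p = 0.0337). Irf2, an interferon regulatory factor, differed by -0.43 (p = 0.00122). Mycbp2, a large ubiquitin ligase, differed by -0.34 (p = 0.000597), and 6 of its 7 probe sets were lower in late mice. Nupl1, a nuclear pore component, differed by -0.39, with its 3 other probe sets between -0.10 and 0.04. Zmym5, a zinc finger protein, differed by -0.42, Kdm7a, a histone demethylase, by -0.34, and Ap4e1, a subunit of the AP-4 adaptor, by -0.31. The next brightest probe sets gave -0.05 for Zmym5, -0.51 for Kdm7a and -0.12 for Ap4e1.

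**Figure D3:**
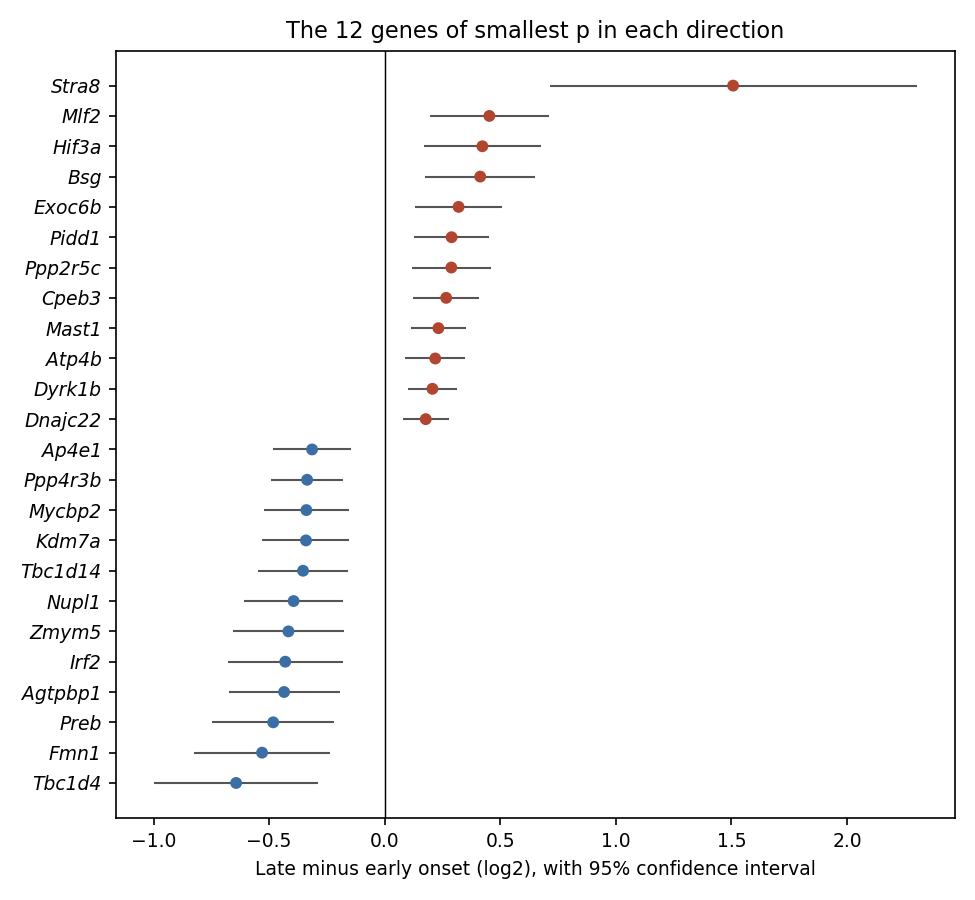
Late minus early onset differences (log2 RMA, points) with 95% confidence intervals (lines) for the 12 genes of smallest p in each direction, none of which passed the adjusted threshold. Stra8, at 1.51, has the widest interval, and the other genes lie between -0.64 and 0.45.

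Of the 511 genes in the 37 lists, 437 passed the filter, and the counts below are over these. Genes of keratinocyte differentiation were spread widely within each class. Flg encodes filaggrin, which bundles keratin in the outermost living layers. Levels of Flg ran from 2.41 to 7.25 in late mice (median 5.36) and from 2.27 to 9.59 in early mice (median 7.20). It was under the early median in 13 of 14 late mice, with a difference of -1.66 (SE 0.61, p = 0.00934, adjusted p = 0.713). The difference was -2.95 in white mice (p = 0.00232), -0.50 in agouti mice (p = 0.533) and 0.00 within cages that held both classes. The white and agouti differences were themselves -2.45 apart (SE 1.20, unadjusted p = 0.0492, adjusted p = 0.984). Lce1a1, a late cornified envelope gene, differed by -1.03 (p = 0.0584). Of 24 measured genes of the suprabasal layers and cornified envelope, 7 were higher and 17 lower in late mice, 1 of them lower at an unadjusted p under 0.05 (background 3.38%), with a median of -0.35. That median ranged from -1.08 to 1.14 over the alternatives, with the highest value within cages. The 11 measured basal keratinocyte genes had 6 higher and 5 lower and a median of 0.07. Hair follicle genes had 2 higher and 11 lower of 13, with a median of -0.22. That median ran from -0.42 to 0.32 over the alternatives. The mean level of the hair follicle list reached 6.33 in late mice (median 5.02) and 7.92 in early mice (median 4.85).

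Among genes of sebaceous glands and lipid synthesis, those for desaturases differed in opposite directions. Fads2, which encodes the delta-6 desaturase of polyunsaturated fatty acids, ran from 5.02 to 7.62 in late mice (median 6.32) and from 4.53 to 7.20 in early mice (median 5.91). It was above the early median in 13 of 14 late mice, with a difference of 0.68 (SE 0.23, p = 0.00444). Scd1, which makes monounsaturated fatty acids and marks sebocytes, ran from 6.79 to 10.78 in late mice (median 9.07) and from 7.82 to 12.41 in early mice (median 9.81). Its difference was -0.77 (SE 0.37, p = 0.0466), but 0.04 in agouti mice and -1.79 in white mice (interaction -1.83, SE 0.73, unadjusted p = 0.017, adjusted p = 0.984). The whole list had 3 higher and 8 lower of 11, with a median of -0.16.

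Markers of blood vessels were lower in late mice throughout the list. Of 11 measured endothelial genes 0 were higher and 11 lower, 3 at an unadjusted p under 0.05 (background 3.38%), with a median of -0.32. Vwf, the von Willebrand factor of endothelial granules, ran from 4.69 to 7.35 in late mice (median 5.98) and from 5.20 to 7.62 in early mice (median 6.63), a difference of -0.47 (SE 0.22, p = 0.0413). Tek, the angiopoietin receptor, differed by -0.45 (p = 0.0445) and Cdh5, the cadherin of endothelial junctions, by -0.48 (p = 0.0476). For Vwf and Tek the median of the intermediate mice did not lie between those of the classes. It was 5.91 for Vwf, and 6.23 for Tek against 5.74 in late and 5.885 in early mice. The mean level of the list ran from 6.02 to 7.69 in late mice (median 6.86) and from 6.40 to 8.38 in early mice (median 7.18), so the classes overlapped over most of their range. Over the alternatives the median stayed between -0.46 and -0.21.

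Other non-epithelial lists leaned the same way with fewer genes at an unadjusted p under 0.05. Striated muscle had 1 higher and 11 lower of 12 (median -0.47), and Myh4, a fast myosin heavy chain, and Ttn, the muscle spring titin, differed by -1.18 (p = 0.0541) and -0.70 (p = 0.0668). Myh4 was above the array median in only 2 late and 11 early mice. The muscle list ran from 5.31 to 7.76 in late mice and from 4.32 to 10.1 in early mice, with a median of 6.45 in both. Adipocyte genes had 0 higher and 5 lower of 5 (median -0.27), with Adipoq, the hormone adiponectin, at -0.78 (p = 0.189). Mast cell genes had 1 higher and 9 lower of 10 (median -0.35). Cma1, a mast cell chymase, ran from 4.80 to 8.64 in late mice (median 6.20) and from 5.37 to 9.26 in early mice (median 6.80), a difference of -0.72 (SE 0.34, p = 0.039). Kit, the receptor for stem cell factor, differed by -0.37 (p = 0.0556). Neutrophil genes had 3 higher and 8 lower of 11 (median -0.33), with Mmp8, a neutrophil collagenase, at -0.77 (p = 0.0741) and S100a8, a calprotectin subunit, at -0.42 (p = 0.175). Fibroblast and collagen genes had 4 higher and 10 lower of 14 (median -0.06). Over the alternatives the median turned positive in places for muscle (-0.87 to 0.23), mast cell (-1.12 to 0.14) and fibroblast genes (-0.44 to 0.11). It ran from -0.53 to 0.002 for adipocyte genes and stayed between -0.65 and -0.07 for neutrophil genes. The part of these cell types in the differences of other genes was not tested.

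Antigen presentation leaned the other way. Of 8 listed MHC class II genes 6 passed the filter, and each of these had a higher mean in late mice, 1 at an unadjusted p under 0.05 (background 3.00%), with a median of 0.30. H2-Aa, the alpha chain of the I-A molecule, ran from 9.44 to 12.25 in late mice (median 11.32) and from 8.78 to 12.55 in early mice (median 10.74). It was above the early median in 13 of 14 late mice, with a difference of 0.62 (SE 0.27, p = 0.025). Cd74, the invariant chain that escorts class II molecules, differed by 0.43 (p = 0.088). The list median lay between 0.14 and 0.45 over the alternatives. Interferon response genes had 14 higher and 3 lower of 17 (median 0.15), none at an unadjusted p under 0.05, with Rsad2, the antiviral protein viperin, at 0.62 (p = 0.0576). That median was -0.27 when late onset was taken as 22 weeks or more. Macrophage markers had 8 higher and 6 lower of 14 (median 0.07), and B and plasma cell markers 1 higher and 4 lower of 5 (median -0.19). Ccl2, the monocyte chemokine, differed by -0.63 (p = 0.0955).

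**Figure D4:**
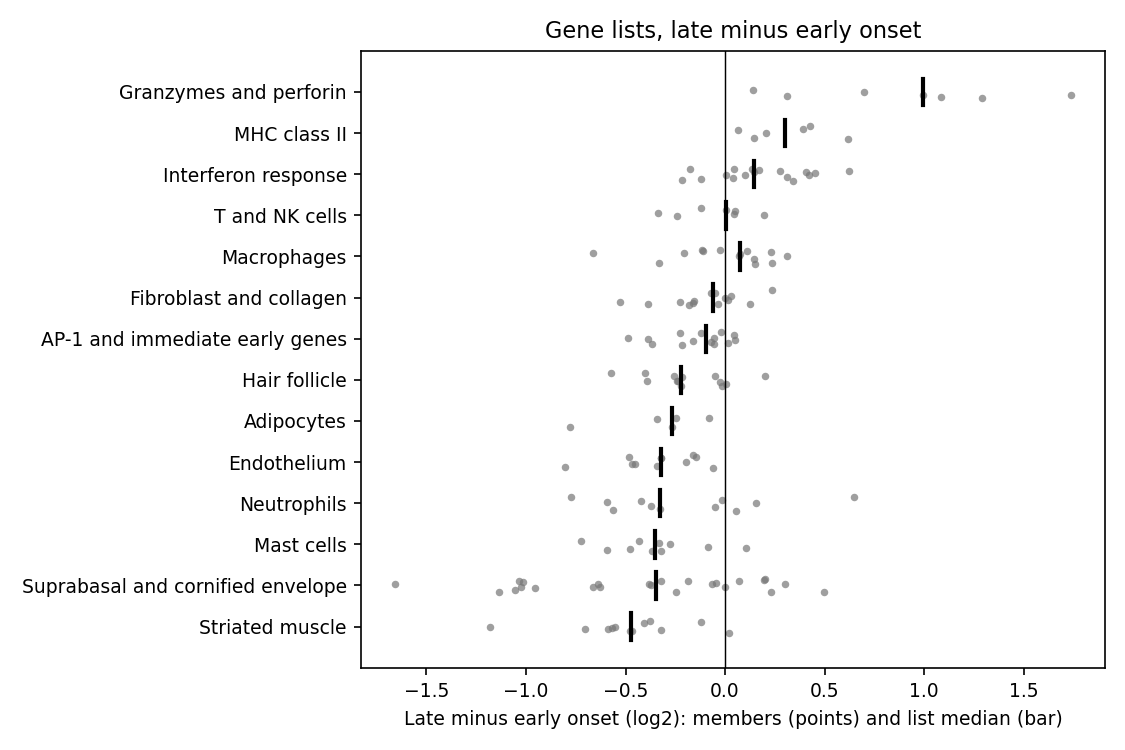
Late minus early onset differences (log2 RMA) of the members of 14 gene lists, with 1 grey point per gene and a black bar at the list's median. The granzymes (median 0.99) and MHC class II genes (0.30) lie right of 0, and the endothelial (-0.32) and adipocyte genes (-0.27) lie wholly left of it.

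Genes of the pathways that DMBA and TPA act on had list medians near that of all genes. Of 14 measured genes that activate or detoxify DMBA, 7 were higher and 7 lower (median 0.03), and Gstm2, a glutathione transferase, differed by 0.54 (SE 0.22, p = 0.021). Ephx1, the epoxide hydrolase that acts on DMBA metabolites, differed by 0.42 (p = 0.184). Of 18 genes of TPA and protein kinase C signalling, 9 were higher and 9 lower (median -0.01), with Prkca and Prkcq, 2 protein kinase C isoforms, at -0.30 (p = 0.0819) and -0.28 (p = 0.0708). AP-1 and immediate early genes, the transcription factors that TPA induces, had 3 higher and 11 lower of 14 (median -0.10), 3 of them lower at an unadjusted p under 0.05 (background 3.38%). Jun differed by -0.39 (p = 0.0378), Fosl2 by -0.23 (p = 0.0246) and Egr2 by -0.49 (p = 0.0415), although Jun was 0.30 higher within cages that held both classes. Genes of RAS-MAPK signalling and its feedback inhibitors had 10 higher and 4 lower of 14 (median 0.09), none at an unadjusted p under 0.05. Egfr, the epidermal growth factor receptor, differed by -0.32 (p = 0.0631) at its brightest probe set. Its next brightest probe set gave 0.16 (p = 0.141), and the remaining ones ran from -0.13 to 0.36. Antioxidant genes under NRF2 had 7 higher and 2 lower of 9, with Gclc, which starts glutathione synthesis, at 0.43 (SE 0.17, p = 0.0166).

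Cell cycle genes and p53 targets also had medians near 0. Mitosis and replication genes had 13 higher and 9 lower of 22 (median 0.06), and none had an unadjusted p under 0.05. Cdk6, a kinase of the G1 phase, differed by -0.36 (p = 0.0274) and its relative Cdk4 by 0.19 (p = 0.0672). Targets of p53 had 13 higher and 6 lower of 19 (median 0.09), with Zmat3, an RNA-binding target of p53, at 0.31 (p = 0.0252). Epithelial adhesion genes had 9 higher and 10 lower of 19 (median -0.03), and mesenchymal genes 9 higher and 8 lower of 17 (median 0.00). Itgb1, an integrin chain of basal cells, differed by 0.22 (p = 0.0396), and Postn and Dcn, both matrix proteins, by -0.39 (p = 0.0849) and -0.53 (p = 0.124).

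At the brightest probe set of each gene that the study discussed by name, Gzme alone had an unadjusted p under 0.05. Il18, an interleukin of the IL1 family, ran from 7.27 to 9.93 in late mice (median 8.61) and from 6.84 to 9.77 in early mice (median 8.74), a difference of 0.08 (SE 0.24, p = 0.742). Spry2, a feedback inhibitor of RAS signalling, differed by 0.15 (SE 0.19, p = 0.413). A dimmer probe set of Spry2, above the median on 21 of 60 arrays, gave 0.44 (SE 0.18, p = 0.0178). That dimmer probe set is the one at which the study reported Spry2, as higher in papillomas of resistant mice. Map2k4, a kinase upstream of JNK and p38, differed by -0.13 (SE 0.11, p = 0.235), and Ccnd1, the G1 cyclin D1, by 0.21 (SE 0.17, p = 0.237). Lgr5, a stem cell receptor, Gprc5d, a receptor of hair keratinocytes, and the inner root sheath keratins Krt71 and Krt25 differed by 0.20, -0.02, -0.26 and -0.40, with p between 0.377 and 0.874. For Il18 the confidence interval, from -0.41 to 0.57, leaves room for a difference of either sign. Hras and Msx2 did not pass the filter. Among genes the study had picked from papillomas of this cross, 5 named genes linked to resistance and 20 linked to susceptibility were listed, a part of the study's list. Of the 3 and 17 that were tested, 2 linked to resistance were higher in late mice and 11 linked to susceptibility were lower. The study chose these genes by eQTL, loci linked to expression, in tumours of the same cohort and by papilloma counts at 20 weeks. The onset classes differ in those counts, so the lists are not independent evidence of a direction. Ndst2, an enzyme of heparan sulphate synthesis and one of the genes linked to susceptibility, differed by -0.23 (p = 0.0287) and lies on chromosome 14. Bmp4, a bone morphogenetic protein on the same chromosome, differed by -0.44 (p = 0.047). It came from the list of the TGF-beta pathway and not from the study's genes. Its level was above the array median in only 1 late and 6 early mice.

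The positions of the genes with an unadjusted p under 0.05 were uneven, a pattern looked for after these values were seen. On chromosome 14, 42 of 432 genes were lower in late mice (9.72%, against 3.38% of all genes) and 10 higher (2.31%). On chromosome 13, 31 of 453 were lower (6.84%) and 3 higher. Chromosomes 12 and 6 leaned the other way, with 33 of 447 (7.38%, against 3.00% of all genes) and 44 of 665 (6.62%) higher and with 6 and 11 lower. Neighbouring genes share alleles in a backcross and copy number in a tumour, so these genes are not independent of each other. With the tested genes cut into 3 equal stretches along the chromosome, the lower genes of chromosome 14 numbered 11, 19 and 12 and those of chromosome 13 numbered 10, 10 and 11, so they were not confined to 1 stretch. The higher genes numbered 13, 13 and 7 on chromosome 12 and 10, 23 and 11 on chromosome 6.

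Named genes from above lie among them. Mycbp2, Nupl1, Tbc1d4, Zmym5, Cma1, Ndst2 and Bmp4 are on chromosome 14 and were lower in late mice, whereas Gzme and Gzmd on the same chromosome were higher. Others of the lower set on chromosome 14 were Bap1, a tumour suppressor and deubiquitinase (-0.22), Dock9, an exchange factor for Cdc42 (-0.53), Mzt1, a part of the microtubule nucleation complex (-0.43), and Gmfb, an actin-remodelling factor (-0.32). Chromosome 13 holds Agtpbp1 and also Lyst, a lysosome trafficking regulator (-0.43). Chromosome 12 holds Ppp2r5c, and Sav1, a scaffold of the Hippo pathway (0.34), and Siva1, an apoptosis-inducing factor (0.32). Chromosome 6 holds Stra8, Mlf2 and Exoc6b among the higher genes and Kdm7a, Vwf and Far2 among the lower.

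The level of whole chromosomes in single mice overlapped between the classes. The mean of the chromosome 12 genes, relative to all genes, ran from -0.03 to 0.25 in late mice (median 0.04) and from -0.26 to 0.19 in early mice (median -0.01), and 12 of 14 late mice lay above the early median. For chromosome 14 it ran from -0.32 to 0.14 in late mice (median -0.02) and from -0.19 to 0.17 in early mice (median 0.00), with 8 of 14 late mice below the early median. For chromosome 13, 10 of 14 late mice lay below the early median, and for chromosome 6, 9 of 14 lay above it. The count of higher genes on chromosome 12 was 17 without late mouse 12 and 53 without early mouse 16, so single mice set much of it. That on chromosome 6 was 27 without late mouse 5 and 56 without late mouse 1. The count of lower genes on chromosome 14 was steadier, between 32 and 45 when each mouse was left out in turn, but 20 in agouti mice alone. Within cages that held both classes these leanings did not appear, with 9 higher and 11 lower on chromosome 14, 11 and 7 on chromosome 13, 12 and 11 on chromosome 12, and 12 and 13 on chromosome 6.

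**Figure D5:**
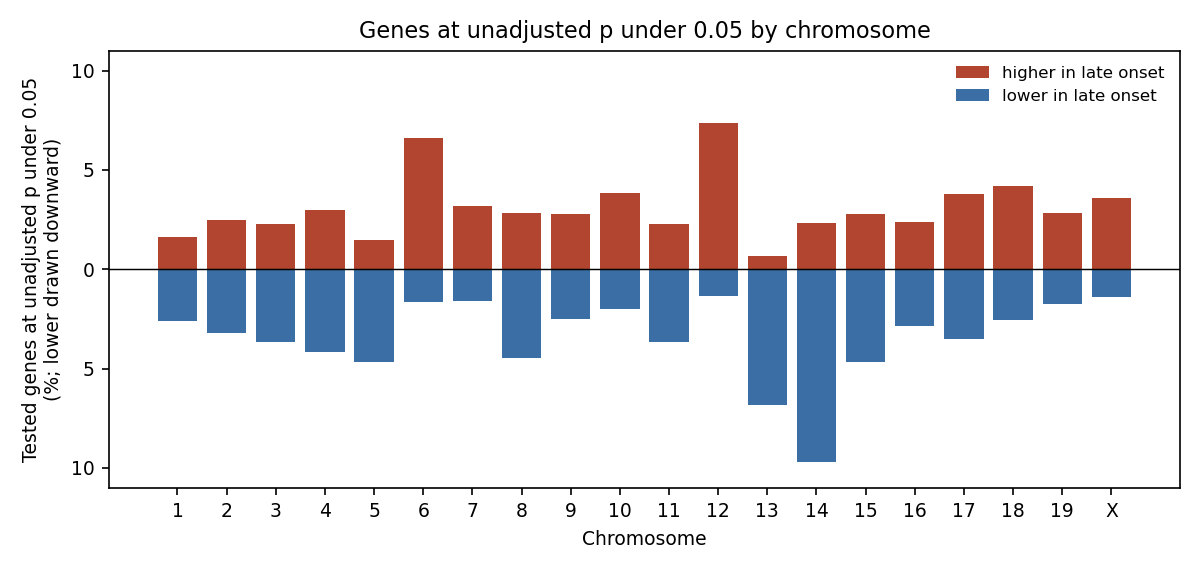
Percent of the tested genes of each chromosome at an unadjusted p under 0.05, drawn upward where higher and downward where lower in late onset mice. Chromosomes 14 (9.72%) and 13 (6.84%) reach farthest down and chromosomes 12 (7.38%) and 6 (6.62%) farthest up.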

How the data were processed

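Expression was measured in carcinomas on Affymetrix mouse genome arrays. The authors deposited log2 RMA values. RMA subtracts background, brings the arrays to a common distribution by quantiles and condenses the probes of a set into a single value, so differences are relative to the whole array. The RMA version and a genome build for these values were not given in the sources used here. The number of arrays limits the precision.

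Of 45101 probe sets, 34958 had a single gene symbol, 932 had several and 9211 had none. Symbols were updated through a RefSeq table of assembly GRCm38.p6, which matched 34754. The probe set with the highest mean over all arrays stood for each of 18194 genes, and testing covered the 12791 genes that exceeded the median of 8 or more arrays. Arrays of one mouse were averaged first. Replicates are mice by their labels, and nothing further is stated of litters.

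The test of late against early onset was limma's moderated test (version 3.58.1, run under R 4.3.3), and the threshold was a Benjamini-Hochberg adjusted p under 0.05. The study's SAM needs permuted labels across all genes, so limma took its place. Data handling used data.table (version 1.17.8), pandas 2.3.3 and numpy 2.4.6 under Python 3.11.15, permutation and Fisher's exact tests with scipy 1.17.1, and figures with matplotlib 3.10.9. The code was tested on simulated data.

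The members, the 37 gene lists (511 genes) and the tests were chosen with earlier results of these data known. Named genes are the 12 of smallest p in each direction, where too few passed, up to 2 of each list by difference over SE, and the genes the study discussed. The remaining granzymes, Cdh5, Egr2 and the genes named by chromosome were chosen after their values were seen.

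Alternatives were the filter, the probe set rule, the scaling, eBayes options, every array kept, covariates (histology, p53, coat colour, sex, origin, papilloma count, Gapdh), cage as a block or a random effect, subsets by histology, p53 or coat, other week limits, arrays or mice in doubt left out, and each mouse left out in turn. Those without near-identical arrays, the counts by chromosome and the coat colour interaction were added after the data were seen.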

Additional observations from a re-analysis of the deposited data

How the results depend on the processing

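No paired analysis was possible because the labels pair no late mouse with an early one and the replicate numbers given here, in accession order, pair nothing. Over 30 alternatives and 39 fits that left out 1 mouse each, no adjusted call was made by limma, with the exception of 1 gene in white mice only. With no filter on low values, 810 of 18194 genes were higher in late mice at an unadjusted p under 0.05. Of the 12791 filtered genes, the number higher was 235 with the papilloma count as a covariate. It was 219 within cages that held both classes and 241 in mice with SCC. The number lower in late mice was 286 in agouti mice. With every probe set tested, the counts were of probe sets and not of genes, 937 higher and 837 lower of 22298. Leaving out each mouse in turn gave 322 to 442 higher, 370 to 515 lower and 0 adjusted calls. Without late mice 3, 6 and 8 the smallest adjusted p was 0.726.

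Of the 75 genes followed through the alternatives, 58 kept their direction in all of them and 17 turned in at least one. The cause was not tested for any of them. With all probe sets of a gene averaged, Cpeb3 gave -0.12, Egfr 0.035 and Map2k4 0.0091. Within cages that held both classes, Exoc6b gave -0.052, Jun 0.30, Cdk4 -0.11, Flg 0.0043, Lce1a1 0.13, Il18 -0.31, Gprc5d 0.21, Krt71 0.32 and Krt25 0.078. In agouti mice, Scd1 gave 0.040, Lce1a1 0.11, Gprc5d 0.065 and Krt25 0.026. In white mice, Il18 gave -0.66, Map2k4 0.024 and Gzmb -0.22. With late onset as 20 weeks or more, Lgr5 gave -0.15, Gprc5d 0.048 and Gzma -0.055, and with 22 weeks or more, Lgr5 gave -0.42, Gprc5d 0.14, Gzma -0.26 and Gzmc -0.20. Without late mice 3, 6 and 8, Il18 gave -0.13, Gprc5d 0.032 and Gzma -0.026. Gprc5d gave 0.031 with coat colour as a covariate and 0.042 with histology, p53, coat colour and sex together. Leaving out each mouse in turn, Gprc5d ranged from -0.091 to 0.038 and Il18 from -0.022 to 0.18. Of 37 list medians, 6 moved beyond 1 SD in 1 alternative each. The subsets are small (11 mice in cages with both classes), so an alternative that turns a direction also has wider error. Stra8, Gzmf, Gzmg and Tbx1 lie under the array median in most mice of at least 1 class, where arrays resolve little. The same holds for Bmp4, Myh4, Gzma, Il2rb and Krt25, among others.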

Other observations

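The late minus early difference of some genes was unlike in white and agouti mice, which was noticed only after the subsets had been fitted. In the 5 late and 14 early white mice, limma called 1 gene, Defb6, a beta-defensin of epithelia. Among these white mice, Xist and Y-linked genes went against the labelled sex in late mice 4, 9 and 14 and in early mice 8, 13 and 22. Its level ran from 3.93 to 5.83 in white late mice (median 4.02) and from 6.84 to 9.95 in white early mice (median 8.08), so these classes did not overlap. The difference was -3.47 (SE 0.47, adjusted p = 0.0052). In agouti mice Defb6 ran from 3.51 to 8.16 in late (median 6.11) and from 3.57 to 9.51 in early mice (median 5.12), a difference of 0.93 (SE 0.70, p = 0.198). The interaction of coat colour and onset was -4.40 (SE 0.91, p = 2.11e-05, adjusted p = 0.135) and did not pass the test.

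No gene passed the test of that interaction, in which limma called 0 of 12791 with 442 at an unadjusted p under 0.05. The smallest adjusted p, 0.0763, belonged to Far2, which reduces fatty acids to the alcohols of waxes. Its difference was -2.95 in white and 0.77 in agouti mice (interaction -3.72, SE 0.71). Elovl3, a fatty acid elongase of sebaceous glands, differed by -2.75 in white and 0.84 in agouti mice (interaction -3.59, adjusted p = 0.262), and Fa2h, a fatty acid hydroxylase, by -2.15 and 0.71 (interaction -2.85, adjusted p = 0.459). These genes were chosen after their values were seen, and their differences in white mice rest on the same white mice, some with sex markers against the label.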
